A study of Mus musculus with 12 samples.

Results

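The SR and hnRNP splicing factors were followed in germ cells and somatic cells of the newborn mouse testis after dexamethasone (dex), a synthetic agonist of the glucocorticoid receptor. They were taken from the gene count table by name, as the protein-coding genes named Srsf followed by a number, Tra2a, Tra2b or Hnrnp followed by any ending. This gave 33 of the 54532 genes in the table, 13 of them SR or Tra2 genes and 20 of them hnRNP genes. All animals carried Tg(Pou5f1-EGFP)2Mnn, the OCT4-GFP transgene, in which the promoter of Pou5f1 drives green fluorescent protein in germ cells. Dams received dex at 10 μg per gram of body weight, or as much saline, by intraperitoneal injection at E17.5 and E18.5. Their male pups received the same agent under the skin at PN0 (the day of birth), and testes were taken at PN1. Cells were then sorted into GFP+ germ cells and GFP- somatic cells, the latter a mixture of all other testis cells, and polyA RNA was sequenced from 3 libraries in each of 4 groups, which were germ dex, germ saline, somatic dex and somatic saline. By the study's methods each library pooled testes of whole litters that had been dosed separately, so that no value belongs to a single pup.

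SR proteins carry RNA-recognition motifs and a tail rich in arginine and serine. They bind exonic enhancers, help to recruit the spliceosome and mostly favour inclusion of the exon they sit on. The heterogeneous nuclear ribonucleoproteins (hnRNPs) coat nascent transcripts, and many of them bind silencer elements and oppose SR proteins in the choice of splice site. Many genes of both families hold poison exons or retained introns, through which the proteins limit their own mRNA, and germ cells of the testis are known for extensive alternative splicing.

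Counts assigned to genes ranged from 18459692 to 25178477 per library. The sort was checked on 8 germ cell genes, among them Ddx4 and Dazl, whose summed level was 2083 to 2294 CPM (counts scaled to a common library size by TMM) in the 6 germ libraries and 7.65 to 9.64 CPM in the 6 somatic libraries. The summed level of 6 Sertoli cell genes, among them Amh and Sox9, was 4762 to 5292 CPM in somatic libraries and 43.1 to 74.4 CPM in germ libraries, with none of the 6 at 0. The summed levels of endothelial and of Leydig genes were less depleted from germ libraries than that of Sertoli genes. The germ libraries held 19.0 to 25.0% of the somatic level of 5 endothelial genes and 2.93 to 7.28% of that of 5 Leydig genes. The endothelial genes went opposite ways. Pecam1 had a mean of 23.94 CPM in germ saline and 15.81 CPM in somatic saline libraries. Cdh5, the most abundant of the list in somatic cells, had 21.97 and 219.9 CPM, and Kdr, Tie1 and Emcn were also lower in germ saline. Whether the endothelial sum reflects carried-over cells was not tested. The summed level of 5 lymphocyte genes was 4.84 to 9.65 CPM in germ dex and 0.963 to 1.71 CPM in somatic dex libraries. Samples of a group are labelled biological replicates, and the p-values below measure the spread between such pools.

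All 33 genes passed edgeR's default filter on low counts in every comparison. In germ cells 30 of the 33 genes had a lower estimate with dex, with a median log2 fold change of -0.18 beside -0.0027 over the 18550 genes tested. By edgeR's quasi-likelihood test with Benjamini-Hochberg adjustment over all genes tested, 4 genes fell at an adjusted p at or under 0.05 and 0 rose. They were Hnrnpa2b1, Hnrnpdl, Srsf7 and Hnrnpa1. Over all genes tested, 0.507% were called lower and 0.739% higher by the same rule. Without adjustment, a p under 0.05 was reached by 22 of the 33 genes, all lower, where 7.69% of all genes tested were lower at that p. For 15 genes the 3 dex libraries lay under all 3 saline libraries, which held for 9.55% of all genes tested. DESeq2 called 8 of the 33 lower, the same 4 and Hnrnph3, Hnrnpl, Hnrnpu and Srsf5, beside 2.57% of the genes it tested. In bulk libraries such as these, fewer cells of a type and less RNA per cell cannot be told apart.

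**Figure D1:**
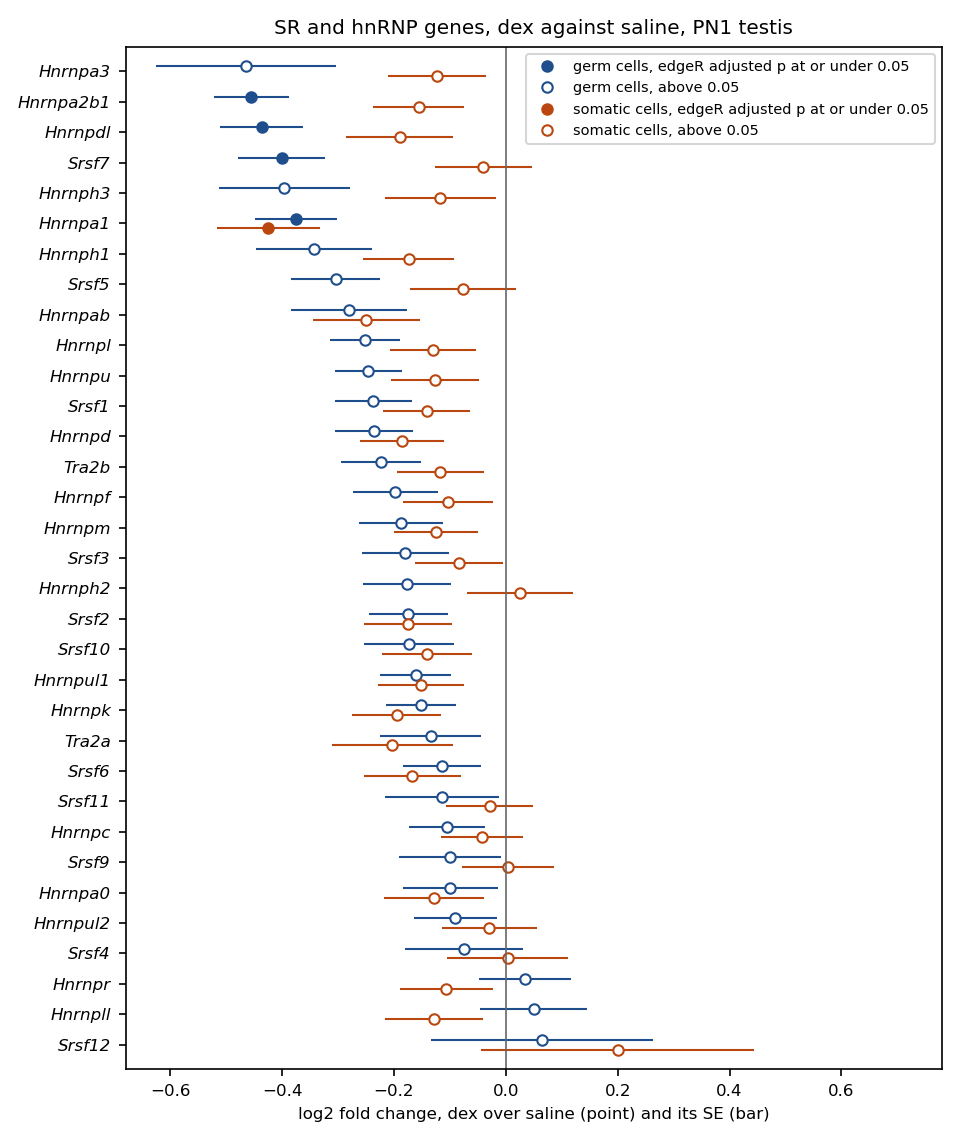
Log2 fold change of dex over saline (horizontal axis) with its standard error (bars) for each of the 33 genes (vertical axis, ordered by the value in germ cells), in germ cells (blue) and somatic cells (orange). Filled points had an edgeR adjusted p at or under 0.05: Hnrnpa2b1, Hnrnpdl, Srsf7 and Hnrnpa1 in germ cells and Hnrnpa1 in somatic cells. In germ cells 30 of the 33 points lie left of 0, and in somatic cells 29.

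The hnRNP A genes had the most negative changes of the 8 families into which the genes were sorted, with a median log2 fold change of -0.42 over 4 genes. Hnrnpa2b1 (ENSMUSG00000004980, chr6:51460932-51469894, mm10, minus strand), which binds and packages nuclear pre-mRNA and takes part in splicing and RNA transport, stood at 847, 877 and 872 CPM in saline germ libraries 1, 2 and 3. In the dex germ libraries it stood at 604, 691 and 607 CPM. The groups did not overlap, the dex spread was wider than the saline spread, and dex library 2 was the highest of the treated. The log2 fold change was -0.45 ± 0.067 (SE, 3 against 3 libraries) and the level fell by 27.04%, with an edgeR adjusted p of 0.0047.

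Hnrnpa1 (ENSMUSG00000046434, chr15:103240432-103246692, plus strand), the best known silencer-binding hnRNP and a counterpart of SR proteins in splice-site choice, stood at 653, 704 and 728 CPM in saline and 501, 589 and 525 CPM in dex germ libraries. Again no dex library reached a saline one. Its log2 fold change was -0.38 ± 0.073 (edgeR adjusted p 0.0233). Of the 64-base stretches in its transcripts, 27.6% also occur in other genes, chiefly a processed pseudogene whose counts equal 4.89% of its own, so part of its reads could have been assigned elsewhere.

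The most negative estimate of all belonged to Hnrnpa3, an A-type hnRNP close to Hnrnpa2b1, at -0.46 ± 0.16, but its edgeR adjusted p was 0.179. It was scarce in germ cells, with 20.5, 23.9 and 18.53 CPM in saline and 17.4, 16.1 and 12.2 CPM in dex libraries, and 26.4% of its 64-base stretches are shared with other genes. A pseudogene that shares most of those stretches had counts equal to 36.1% of its own. The remaining A-type gene, Hnrnpa0, differed least, since its dex libraries at 384, 492 and 479 CPM overlapped its saline libraries at 468 to 499 CPM.

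Among the D and A/B genes, Hnrnpdl (ENSMUSG00000029328, chr5:100033577-100039664, minus strand), a relative of the AU-rich element binding protein hnRNP D, was called. It stood at 298, 321 and 287 CPM in saline and 216, 242 and 214 CPM in dex germ libraries, with no overlap. The log2 fold change was -0.44 ± 0.074 (edgeR adjusted p 0.0103). Hnrnpd and Hnrnpab were also lower, and the family's range was -0.44 to -0.24.

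Of the 8 classical SR genes all had a negative log2 fold change, from -0.40 to -0.074 with a median of -0.18, and Srsf7 alone was called. Srsf7 (ENSMUSG00000024097, chr17:80200089-80207305, minus strand), an SR protein with a zinc knuckle that also serves mRNA export, stood at 191, 214 and 185 CPM in saline and 146, 144 and 158 CPM in dex germ libraries. Its 3 dex values lay close together and well under the saline values. The log2 fold change was -0.40 ± 0.077 (edgeR adjusted p 0.0224).

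Srsf5, an SR protein known for exon-enhancer binding, was the next SR gene in order. Its saline libraries held 201, 206 and 191 CPM and its dex libraries 166, 175 and 144 CPM, without overlap. At -0.30 ± 0.080 its edgeR adjusted p of 0.0809 did not pass. Of the SR-like genes, Tra2b, which activates exons with purine-rich enhancers, stood at 225, 231 and 218 CPM in saline and 185, 186 and 209 CPM in dex germ libraries, with -0.22 ± 0.072 and an edgeR adjusted p of 0.152.

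The H and F genes encode proteins that bind runs of G. Hnrnph3 had 60.1, 52.9 and 57.2 CPM in saline and 37.1, 51.3 and 41.4 CPM in dex germ libraries, which did not overlap although dex library 2 came close to saline library 2. Its log2 fold change was -0.40 ± 0.12 (edgeR adjusted p 0.116), and Rufy2 on the opposite strand overlaps it with counts equal to 28.7% of its own. Hnrnph1 had 273, 291 and 224 CPM in saline and 238, 201 and 185 CPM in dex libraries, which overlapped, with -0.34 ± 0.10 and an edgeR adjusted p of 0.124.

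The 3 genes with estimates above 0 lay within their errors. They were Hnrnpr at 0.034 ± 0.082, Hnrnpll, which controls exon skipping in lymphocytes, at 0.05 ± 0.095, and Srsf12, an SR-like gene with 6.56 to 10.7 CPM in the dex germ libraries, at 0.065 ± 0.20. Their edgeR adjusted p-values were 0.9, 0.863 and 0.924. The L, U and other hnRNP families had medians of -0.10, -0.16 and -0.13, and the 5 SR-like genes -0.13.

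**Figure D2:**
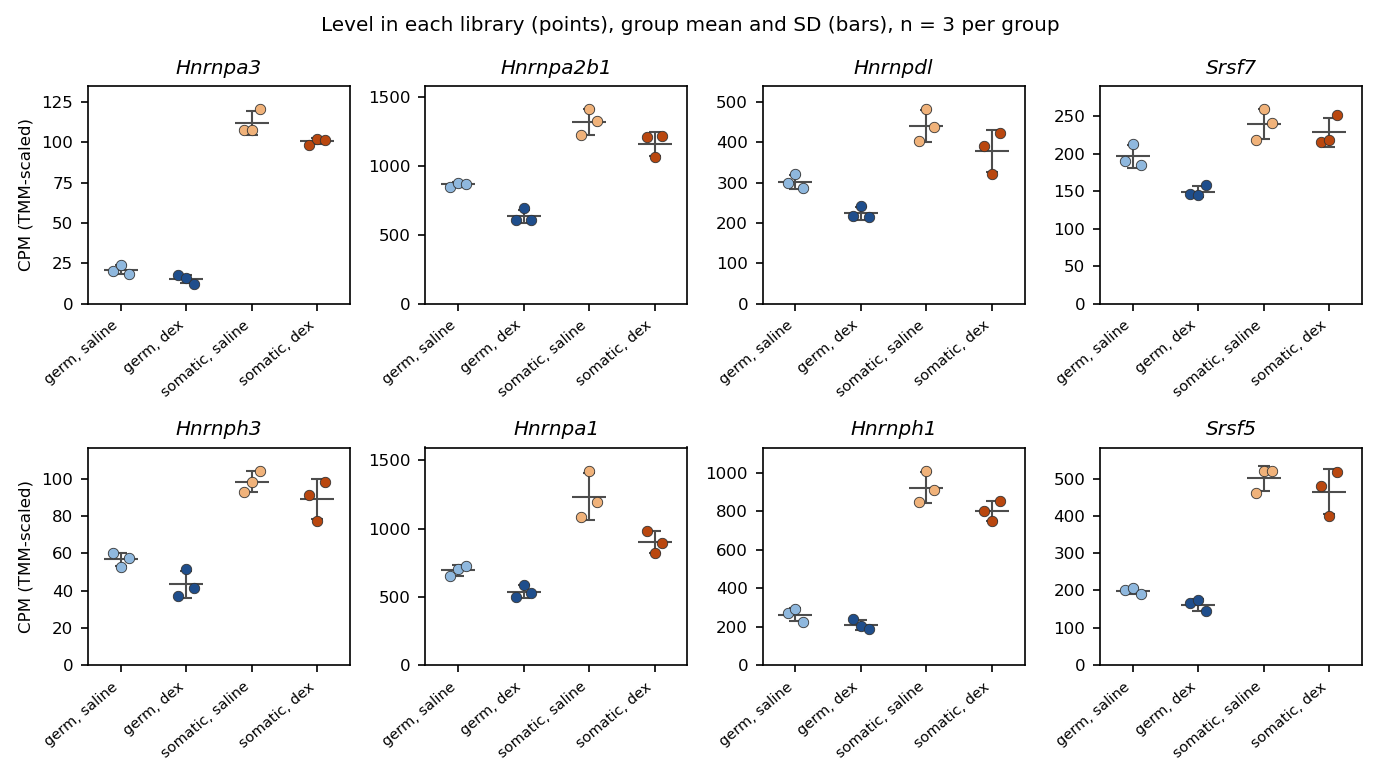
Level of 8 genes in CPM (vertical axes, from 0) in each library (points) of the 4 groups, with the mean and SD of 3 libraries (bars); the genes are the 8 with the most negative change in germ cells. The 3 germ dex points lie under the 3 germ saline points in every panel but that of Hnrnph1.

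The call of Hnrnpa2b1 was kept when any 1 library was left out (edgeR adjusted p 0.000985 to 0.0348) and was lost only by limma-trend on FPKM (0.0915). Those of Hnrnpdl, Srsf7 and Hnrnpa1 were each lost without saline library 1 or saline library 2 (0.0629 to 0.134), that of Hnrnpdl also without dex library 3 (0.0567), that of Srsf7 without dex library 1 (0.086), and that of Hnrnpa1 without dex library 1 (0.097) or 3 (0.0933). By limma-trend on FPKM these 3 calls were lost as well, with adjusted p-values of 0.0972 for Hnrnpdl, 0.116 for Srsf7 and 0.169 for Hnrnpa1. With all 12 libraries in 1 edgeR fit, those of Hnrnpdl (adjusted p 0.0565) and Hnrnpa1 (0.113) were lost.

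Genes of other cell types and of dividing cells also differed between the 2 germ groups. The summed level of the 6 Sertoli genes was 43.1 to 51.6 CPM in germ dex and 64.2 to 74.4 CPM in germ saline libraries, that of 5 Leydig genes 4.65 to 8.62 and 8.77 to 11.6 CPM, and that of 12 genes of dividing cells, among them Mki67 and Top2a, 1904 to 2314 and 2386 to 2543 CPM. The ranges of 5 erythroid genes were 4.05 to 6.88 and 7.53 to 9.07 CPM, and those of 4 further lists (peritubular and stromal, endothelial, macrophage and lymphocyte) overlapped. Their part in the results for the splicing factors was not tested.

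Promoter sequences of the called genes are shown because the 4 genes fell together in germ cells. They are RefSeq's, on GRCm38.p6, and run through the 250 bases before a transcription start, 5′ to 3′ on the gene's strand. Capitals mark the CCAAT box. They also mark the GC box, written GGGCGG. The core of the cyclic AMP response element is marked as TGACG. One side of the glucocorticoid response element was searched as AGAACA. Matches on both strands are marked, and none of those marked overlap. The promoters lie at chr6:51469895-51470144 (minus strand), chr17:80207306-80207555 (minus strand) and chr15:103240147-103240396 (plus strand). The entry for Hnrnpdl falls within the gene body of the count table and is not shown. A second entry for Hnrnpa2b1, which runs 49 bases into the gene body, is not shown either. The window of Hnrnpa1 ends at 103240396, short of the gene's start at 103240432 in the count table, so the 2 sources place that start differently.
Hnrnpa2b1: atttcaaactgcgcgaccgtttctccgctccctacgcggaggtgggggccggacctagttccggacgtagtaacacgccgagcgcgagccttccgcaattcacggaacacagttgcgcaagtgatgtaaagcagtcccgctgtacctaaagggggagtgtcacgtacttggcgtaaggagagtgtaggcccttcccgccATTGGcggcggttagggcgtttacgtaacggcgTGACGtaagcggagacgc
Srsf7: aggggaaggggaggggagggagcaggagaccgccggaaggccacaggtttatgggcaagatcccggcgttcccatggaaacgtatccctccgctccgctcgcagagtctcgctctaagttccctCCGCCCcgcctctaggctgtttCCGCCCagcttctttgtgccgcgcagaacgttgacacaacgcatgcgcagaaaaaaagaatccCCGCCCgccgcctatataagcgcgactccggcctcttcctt
Hnrnpa1: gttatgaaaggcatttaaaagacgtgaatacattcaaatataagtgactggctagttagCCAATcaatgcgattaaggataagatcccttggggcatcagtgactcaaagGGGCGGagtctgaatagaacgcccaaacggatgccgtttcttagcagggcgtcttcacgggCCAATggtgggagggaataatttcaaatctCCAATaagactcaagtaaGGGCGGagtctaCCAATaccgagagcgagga

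None of the 3 windows held AGAACA, while that of Hnrnpa1 held 4 CCAAT and 2 GGGCGG, that of Srsf7 held 3 GGGCGG, and that of Hnrnpa2b1 held 1 CCAAT and 1 TGACG. Over the 31 of 33 genes with a RefSeq promoter (Hnrnpll and Hnrnpul2 had none), AGAACA was found in 3, or 9.68%, beside 18.2% of 27025 genes, and the full palindromic glucocorticoid response element in 0, beside 0.0111%. TGACG was found in 58.1% beside 19.8% of all genes, GGGCGG in 83.9% beside 35.4% and CCAAT in 54.8% beside 37.5%. All genes here are those with a RefSeq promoter, expressed or not. No set of genes matched for level was compared. The median GC content was 68% for promoters of the splicing factors and 52.4% for all promoters. A match describes the letters only, and receptor binding was not measured.

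In somatic cells 29 of the 33 genes had a negative log2 fold change, with a median of -0.13 beside -0.0066 over 16766 genes tested. By edgeR's adjusted p 1 gene fell and 0 rose, where 1.17% of all genes tested were called lower and 2.74% higher. Without adjustment, 5 genes had a p under 0.05, all lower, beside 7.21% of all genes tested, and DESeq2 called 1 gene. Over all genes DESeq2 called 343 lower and 633 higher. For 10 genes the dex libraries lay under all saline libraries, beside 12% of all genes tested. This count was 8 with RLE scaling, 8 with the deposited FPKM and 18 with library totals, which moved the median of all genes to -0.066. The share over all genes was not counted at those scalings.

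The somatic call was Hnrnpa1. It stood at 1082, 1424 and 1198 CPM in saline and 983, 825 and 893 CPM in dex somatic libraries, so that all dex libraries lay lower and saline library 2 stood apart as the highest. Its log2 fold change was -0.42 ± 0.093 (edgeR adjusted p 0.0157), and the call was lost without dex library 2 (0.0738), dex library 3 (0.0621) or saline library 3 (0.0626), with 1.27e-05 to 0.131 over all alternatives. It was the 1 gene called in both populations.

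The other germ cell calls had somatic estimates nearer to 0. Hnrnpa2b1 stood at 1223, 1411 and 1330 CPM in saline and 1207, 1062 and 1218 CPM in dex somatic libraries, without overlap, at -0.16 ± 0.082 (edgeR adjusted p 0.378). Hnrnpdl was at -0.19 ± 0.096 (0.357) and Srsf7 at -0.040 ± 0.086 (0.878). For Srsf7 the libraries overlapped widely, with 219, 259 and 241 CPM in saline and 216, 218 and 251 CPM in dex, and the estimate turned positive without dex library 1.

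Next to Hnrnpa1, the most negative somatic estimates were those of Hnrnpab at -0.25 ± 0.096 (edgeR adjusted p 0.197), Tra2a, a partner of Tra2b, at -0.20 ± 0.11 (0.386) and Hnrnpk, a poly(C)-binding protein, at -0.20 ± 0.080 (0.234). Hnrnpab passed only without dex library 1 (0.0496, and up to 0.488 under other alternatives). The most positive were Srsf12 at 0.20 ± 0.24, Hnrnph2 at 0.025 ± 0.095 and Srsf9 at 0.0043 ± 0.082, and the last 2 were negative with library totals. The 12 genes of dividing cells summed to 1306 to 1412 CPM in somatic dex and 1641 to 1725 CPM in somatic saline libraries. The summed level of 5 peritubular and stromal genes was 3444 to 3949 CPM in dex and 2393 to 3016 CPM in saline somatic libraries, that of 5 macrophage genes 15.9 to 20.2 and 28.1 to 50.2 CPM, and that of 5 lymphocyte genes 0.963 to 1.71 and 4.48 to 5.59 CPM. The part of these in the somatic results was not tested.

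The difference between the populations was tested directly, as the log2 fold change in germ cells minus that in somatic cells over all 12 libraries. By edgeR 0 of the 33 genes were called in either direction, and by DESeq2 also 0. Over all 20551 genes edgeR called 0.414% lower and 0.414% higher, and DESeq2 called 282 lower and 366 higher. Without adjustment, Srsf7 and Hnrnpa2b1 had a p under 0.05, which makes 2 genes, both lower, beside 5.47% of all genes tested. The difference was -0.32 ± 0.12 for Srsf7 (edgeR adjusted p 0.266) and -0.26 ± 0.11 for Hnrnpa2b1 (0.329). Approximate 95% intervals, from normal quantiles and without adjustment over genes, were -0.57 to -0.080 and -0.49 to -0.039.

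For Hnrnpdl the difference was -0.21 ± 0.14 (edgeR adjusted p 0.561) and for Hnrnpa1 0.088 ± 0.14 (0.886), whose interval ran from -0.19 to 0.36. Hnrnpa3 at -0.31 ± 0.17 was the other most negative gene, and Hnrnpll at 0.22 ± 0.14, Hnrnpr at 0.18 ± 0.13 and Tra2a at 0.10 ± 0.15 were the most positive. The 33 genes had a median difference of -0.050, beside 0.034 over all genes tested. Of the 33 genes 22 lay below 0, and 17 when scaled by library totals. Across the 33 genes the changes in the 2 populations had a Pearson r of 0.46 and a Spearman rho of 0.37, 27 genes were negative in both, and 25 had the lower value in germ cells. These are descriptions over genes, which are not independent replicates.

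Under saline most of the genes were less abundant in germ cells than in somatic cells. In these libraries edgeR called 20 of the 33 lower in germ cells and 7 higher, while 36.7% of the 18870 genes tested were lower and 39.8% higher. The libraries did not overlap for the same numbers of genes, 20 lower and 7 higher, beside 38% and 41.7% of all genes tested. The median log2 fold change of germ over somatic cells was -0.48 for the 33 genes and 0.072 for all genes tested. Scaling by library totals moved the latter to 0.21 and the former to -0.34.

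The largest deficits in germ cells were those of Hnrnpa3 and Hnrnph1. Hnrnph1 stood at 273, 291 and 224 CPM in saline germ libraries and 847, 1011 and 913 CPM in saline somatic libraries, at -1.82 ± 0.11 on the log2 scale. Hnrnpa3 stood at -2.42 ± 0.12, with germ libraries from 18.53 to 23.9 CPM and somatic libraries from 108 to 121 CPM (edgeR adjusted p 2.1e-09). Srsf5 at -1.34 ± 0.080, Hnrnpl, a binder of CA repeats, at -0.998 ± 0.074 and Srsf6 at -0.85 ± 0.077 followed, and all 5 were called lower.

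The genes called higher in germ cells were led by Hnrnpf at 0.92 ± 0.088 and Hnrnph2, the X-linked relative of Hnrnph1, at 0.88 ± 0.079. Hnrnpf stood at 483, 528 and 532 CPM in germ and 245, 302 and 268 CPM in somatic libraries. Srsf9 (0.70 ± 0.087) and the U-type genes Hnrnpul2 (0.65 ± 0.090) and Hnrnpul1 (0.45 ± 0.084), which take part in the DNA damage response, came next. Within the H and F family the members thus went opposite ways, with Hnrnph1 and Hnrnph3 lower and Hnrnpf and Hnrnph2 higher in germ cells, under TMM, RLE and library-total scaling alike. Of the stretches of Hnrnpf, 58.7% are shared with other genes.

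The 4 genes that fell with dex in germ cells were all called lower there than in somatic cells already in saline, at -0.83 ± 0.10 for Hnrnpa1, -0.61 ± 0.078 for Hnrnpa2b1, -0.55 ± 0.085 for Hnrnpdl and -0.29 ± 0.088 for Srsf7. Scaled by library totals, Srsf7 was not called (edgeR adjusted p 0.0893, with 0.00162 to 0.09 over all alternatives). The germ saline libraries entered both comparisons. Hnrnpk, Tra2b, Srsf10, Srsf1, Srsf12 and Hnrnpu were not called in either direction in the main edgeR test. Other settings called some of them. Hnrnpu was called with RLE or library-total scaling, by DESeq2 and by limma-trend, and under these the main call of Hnrnpc was lost. Hnrnpk was called with the replicate block and without somatic saline library 1.

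Levels of different genes were compared per length, as FPKM, the authors' fragment counts scaled for gene length and library depth. In saline germ cells the order ran from Hnrnpab (248 ± 23.4 FPKM, SD, n = 3), Hnrnpa1 (224 ± 13.97) and Hnrnpa0 (183 ± 6.54) down to Hnrnpll (5.37 ± 0.550), Hnrnpa3 (3.96 ± 0.504) and Srsf12 (2.63 ± 0.137). The ranges of Hnrnpab and Hnrnpa1 overlapped, and so did those of Hnrnpr and Hnrnpll. The order depends on the annotated exon length used, which was 22199 bases for Hnrnpr and 11677 for Hnrnpll. In germ saline Hnrnpll, with a mean of 61.6 CPM, thus ranked under Hnrnph3, with 56.7 CPM and 3151 bases. In saline somatic cells Hnrnpa1 led with 366 ± 42.2 FPKM, ahead of Hnrnpa0 (262 ± 13.8) and Hnrnpa2b1 (188 ± 10.0), and Srsf12 was again last (2.23 ± 0.551). Hnrnpa2b1 overlapped there with Hnrnpab, the next in order. Among SR genes Srsf9 (156 ± 17.51 FPKM) and Srsf2 (149 ± 7.82) led in germ cells, with overlapping ranges, whereas Srsf5 (118 ± 7.41) and Srsf2 (116 ± 4.86) led in somatic cells, also overlapping.

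**Figure D3:**
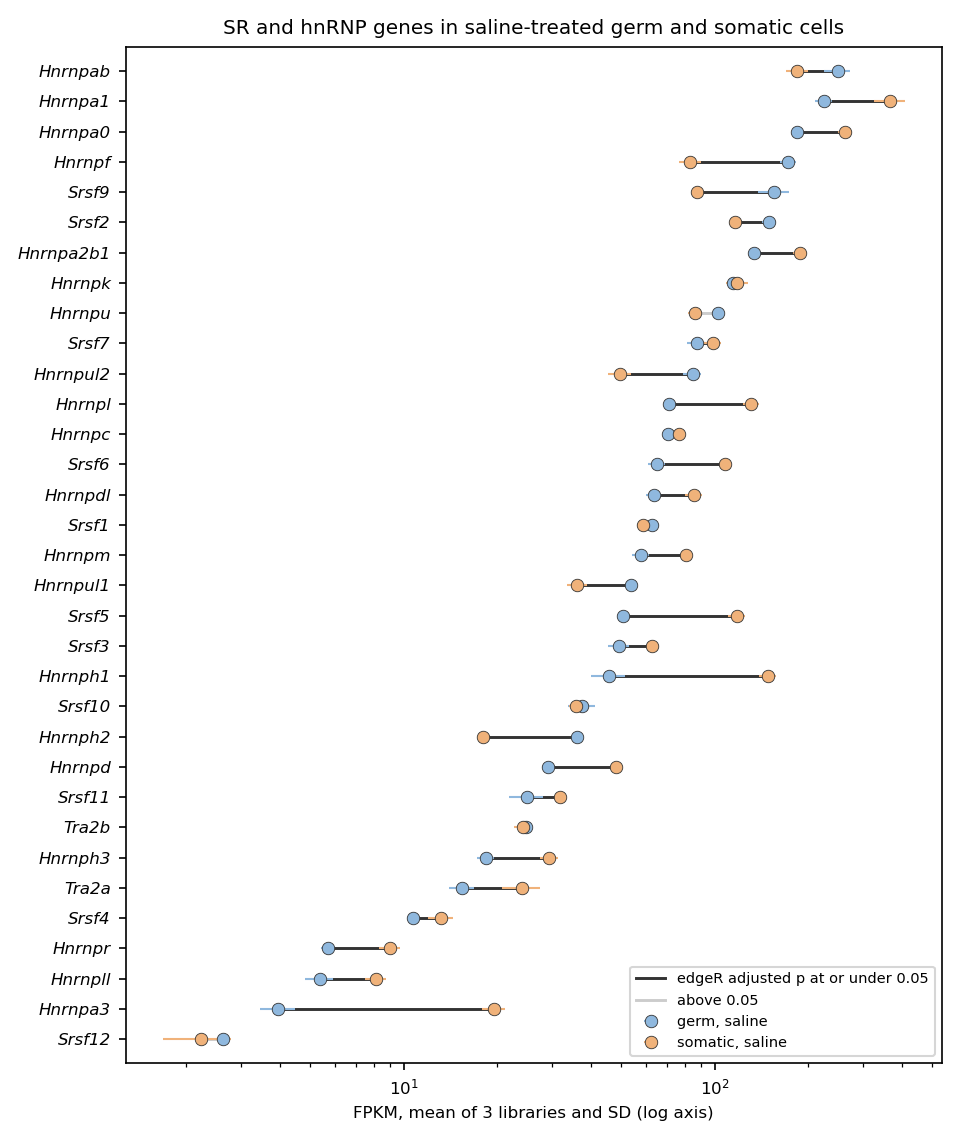
Mean FPKM of 3 saline libraries with SD (horizontal log axis) of the 33 genes in germ cells (blue) and somatic cells (orange), ordered by the level in germ cells; a dark line joins genes called between the populations by edgeR, a pale line those not called. The longest lines are those of Hnrnpa3 and Hnrnph1, lower in germ cells, and Hnrnpf and Hnrnph2 are the longest in the other direction.

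Summed over families, the A-type genes held 545 ± 22.035 FPKM in germ saline and 452 ± 42.5 in germ dex libraries, and 836 ± 55.6 and 701 ± 56.5 FPKM in somatic saline and dex libraries. The classical SR genes held 632 ± 15.7 FPKM in germ saline and 562 ± 22.8 in germ dex, and 663 ± 18.6 and 622 ± 39.8 FPKM in somatic saline and dex. In germ cells the dex libraries of both families lay under all saline libraries, with 408 to 493 against 520 to 559 FPKM for the A-type genes and 538 to 584 against 620 to 650 FPKM for the SR genes. In somatic cells the A-type ranges were 646 to 759 and 788 to 897 FPKM, and the SR ranges of 578 to 654 and 642 to 675 FPKM overlapped.

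The single libraries of each group were then compared with the saline mean of their population. In germ dex libraries 1, 2 and 3, 30, 27 and 31 of the 33 genes lay under the saline mean, and 25, 24 and 23 lay under all 3 saline libraries, where 30.9, 28.5 and 28.5% of all genes did. Their median differences in log2 CPM were -0.22, -0.18 and -0.18, while those over all genes were at most 0.0088. Each saline germ library set against the other 2 had a median of -0.020, 0.062 and -0.076, so that the treated libraries stood outside the range of the saline ones. Within dex library 1 Hnrnpa0, Hnrnpab and Srsf9 were lowest of the group, and dex library 2 held the highest treated level of 3 of the 4 A-type genes.

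In somatic dex libraries 29, 30 and 28 genes lay under the saline mean, with medians of -0.13, -0.24 and -0.11. The somatic saline libraries differed more among themselves than the germ ones, at -0.12, 0.15 and -0.034 when each was set against the other 2. Saline library 2 was the high one, and over all genes its median was 0.094. Dex library 2 was the low one, with 29 of 33 genes under all saline libraries, beside 33.9% of all genes. In dex libraries 1 and 3 these counts were 20 and 18, beside 27.7 and 31.7% of all genes. Saline library 1, set against the other 2, had 27 genes under their mean and 21 under both, beside 35.2% of all genes. In saline libraries 2 and 3 the counts under both others were 4 and 8. The medians of dex libraries 1 and 3 thus lay near that of saline library 1, unlike in germ cells.

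**Figure D4:**
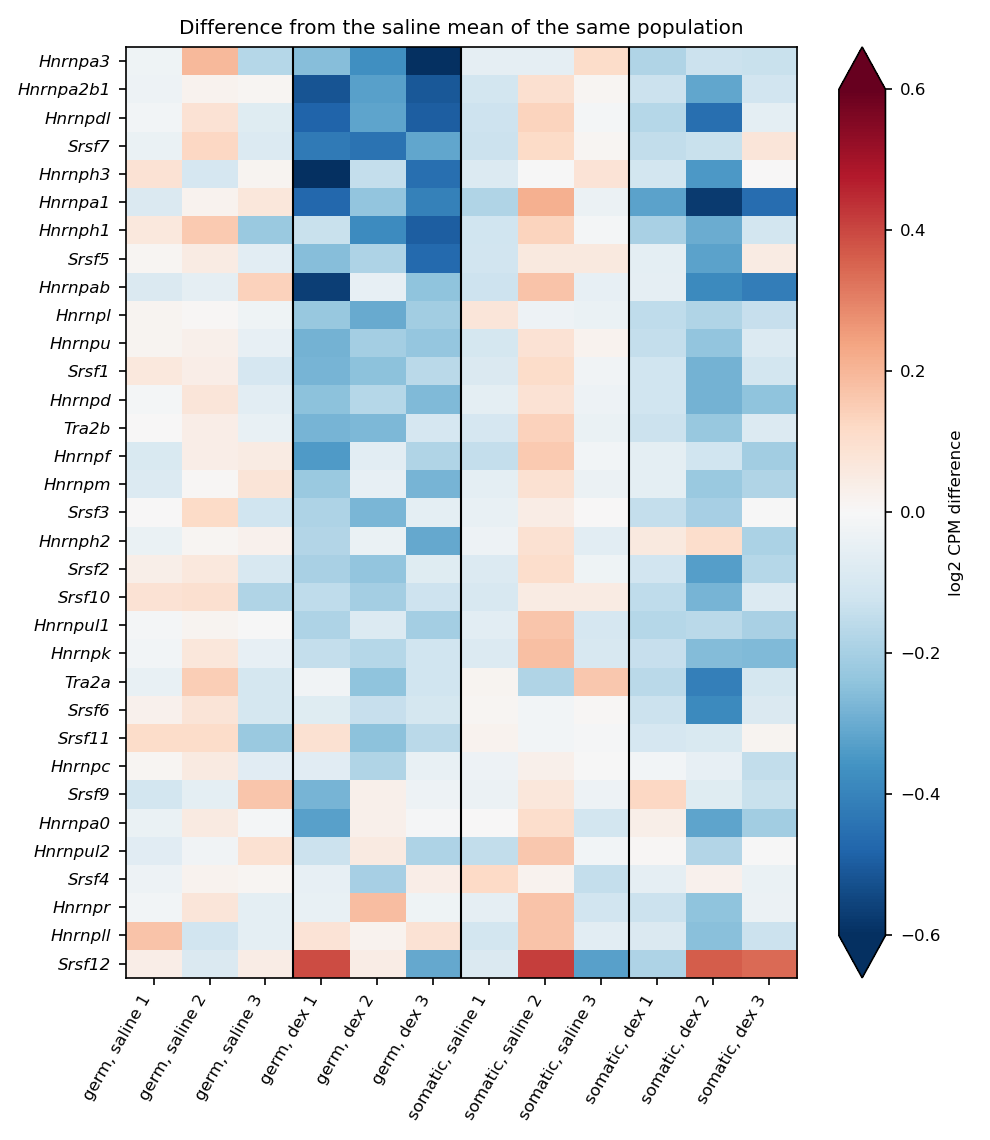
Difference in log2 CPM of each library (columns, 3 per group) from the saline mean of its own population, for the 33 genes (rows, ordered by the change in germ cells); blue is lower, red is higher, and colours end at 0.6. The 3 germ dex columns are blue in most rows, somatic saline library 2 is mostly red, and somatic dex library 2 is the bluest somatic column.

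All together, the 33 genes held 1.175 ± 0.0179% of all counts in germ saline libraries and 1.021 ± 0.0442% in germ dex libraries (SD, n = 3). The germ dex libraries held 0.983, 1.07 and 1.01% and the germ saline libraries 1.16, 1.196 and 1.17%, without overlap. In somatic cells the share was 1.371 ± 0.046% in saline and 1.181 ± 0.079% in dex libraries. There the dex libraries held 1.22, 1.09 and 1.24% and the saline libraries 1.32, 1.41 and 1.38%, also without overlap.

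**Figure D5:**
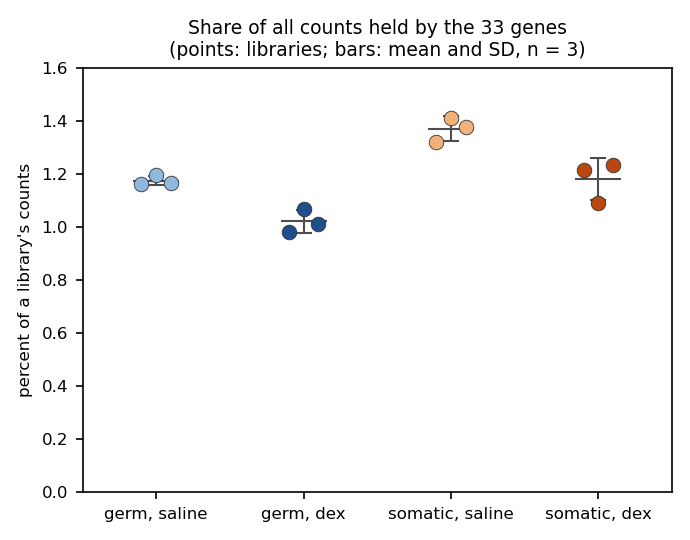
Share of a library's counts held by the 33 genes together, in percent (vertical axis, from 0), for each library (points) of the 4 groups with mean and SD (bars). In each population the 3 dex points lie under the 3 saline points, and the germ saline points lie close to those of somatic dex.

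In the GENCODE M21 annotation, 21 of the 33 genes (63.6%) hold a transcript marked for nonsense-mediated decay, compared with 30.6% of protein-coding genes at a mean of at least 100 CPM and 27.1% at a mean of at least 1 CPM. A retained-intron transcript is listed for 24 of them (72.7%), and for 70.9% and 56.1% of those genes. Of the 4 genes called in germ cells, all hold a transcript of the first kind and all but Hnrnpa1 one of the second. The count table does not separate transcripts, so which of them changed was not measured.

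Other genes of the splicing pathway were read from 3 lists. Of 15 SR-related proteins, such as Srrm1 and U2af2, 13 were lower in germ dex libraries with a median log2 fold change of -0.11. By edgeR 0 were called (2 by DESeq2, and 4 at an unadjusted p under 0.05, all lower). Over all genes tested in germ cells, 7.69% were lower at that p. DESeq2 called 2.57% of its genes lower, and edgeR called 0.507% lower and 0.739% higher. Of 9 measured SR protein kinases and import genes, which phosphorylate SR proteins or carry them into the nucleus, 7 were lower with a median of -0.062, and 0 were called by edgeR or DESeq2 or had an unadjusted p under 0.05. Of 21 other regulators 12 were lower and 9 higher, and the 1 called was Mbnl2, a muscleblind-like splicing regulator, which rose by 0.43 ± 0.099 (edgeR adjusted p 0.0495). In somatic cells none of the 3 lists had an edgeR or a DESeq2 call, and their medians ran from -0.10 to -0.043. At an unadjusted p under 0.05 they had 1, 0 and 2 genes, all lower, beside 7.21% of all genes tested.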

How the data were processed

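The authors sequenced polyA RNA of 12 libraries (4 groups, 3 each), and per the labels aligned reads with HISAT2 2.0.5 to mm10, counted them with featureCounts 1.5.0-p3 and used DESeq2 1.20.0. The annotation release and strand setting are not given in the sources used here. The deposited raw counts per gene were tested, and the deposited FPKM values, normalized by the authors for length and depth, were used for levels between genes. Tables of the authors' own comparisons (fold changes, p-values) were not used. Counts were fitted with edgeR 4.0.16 in R 4.3.3 (TMM, filterByExpr with a minimum count of 10, glmQLFTest, two-sided), in germ, somatic or saline libraries alone (6 each), or all 12 for the difference of effects, with Benjamini-Hochberg adjustment over all genes tested and calls at 0.05. A standard error is the log2 fold change over the root of its F statistic. CPM values are TMM-scaled, with a prior count of 2 on the log2 scale. Alternatives were DESeq2 1.42.0, RLE and library-total scaling, other filters, limma-trend (limma 3.58.1) on log2(FPKM + 0.1), a replicate block, 1 fit of all libraries, and leaving out each library. The fits were tested on simulated data. Total counts set the precision, and p-values measure the spread between pools of litters. The genes and lists were chosen with earlier results of these data known. A further list of hnRNP proteins with other symbols is not reported here. Statistics are printed for genes called, for the 8 most negative (germ), 5 most negative and 3 most positive (somatic), 5 largest each way (saline) or 3 each way (difference), for germ genes above 0, for genes called in germ cells, and for Tra2b, Srsf7, Hnrnpa2b1 and Hnrnph3, which the study measured by qRT-PCR. Stretches of 64 bases shared between genes were counted in the GENCODE M21 transcripts; 31 of 33 genes have the same coordinates there as in the count table.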

Additional observations from a re-analysis of the deposited data

How the results depend on the processing

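The direction of the genes called in the 2 dex comparisons held under every setting that was run. In germ cells the number of genes called lower, 4 in the main test, was 8 with DESeq2, 10 with no filter on low counts, 2 with the replicate block, 2 with all 12 libraries in 1 fit, 0 by limma-trend on FPKM, and 1 to 8 when 1 library was left out: 1 without saline library 1 or 2, 2 without dex library 1 or 3, and 8 without dex library 2. Over all genes the count called lower moved too. It was 94 of 18550 in the main test, 347 with DESeq2, 401 of 33910 with no filter and 23 with the block. It was 66 in 1 fit, 1 by limma-trend, and 18 (without saline library 1) to 151 (without dex library 2) with 1 library left out. With the replicate block Hnrnpa2b1 and Hnrnpdl remained and Srsf7 (adjusted p 0.0832) and Hnrnpa1 (0.0574) did not, and with 1 fit Hnrnpa2b1 and Srsf7. The germ median of -0.18 was -0.157 with library totals, -0.157 by limma-trend, and -0.218 to -0.1687 with 1 library left out. In somatic cells 0 genes were called by limma-trend (Hnrnpa1 adjusted p 0.131), and 0 to 2 with 1 library left out: 0 without dex library 2, dex library 3 or saline library 3, and 2 without dex library 1. Over all genes 196 were called lower there in the main test and 34 by limma-trend. With 1 library left out this was 72 (without saline library 3) to 157 (without dex library 1). The median of germ over somatic cells in saline was -0.382 with DESeq2 or RLE, -0.341 with library totals and -0.356 by limma-trend. Estimates near 0 changed sign. Srsf9 in somatic cells went to -0.055 with library totals, -0.00052 without the filter, -0.024 with all libraries, -0.067 to 0.0597 with 1 library left out (below 0 without dex library 1 or saline library 1, -0.0019). Hnrnph2 there went to -0.036 with library totals, -0.0047 with all libraries and -0.033 (without dex library 2) to 0.1144 with 1 library left out, and Srsf7 ranged from -0.1121 to 0.0064 (without dex library 1). With 1 library left out, the germ ranges were -0.13 (without dex library 1) to 0.2204 for Srsf12, -0.043 (without dex library 2) to 0.0754 for Hnrnpr and -0.0034 (without saline library 2) to 0.1398 for Hnrnpll. The difference for Hnrnpa1 ranged from -0.016 (without somatic saline library 2) to 0.1455. The cause of these changes was not tested. Replicate numbers did not pair the libraries by the criterion used, an r over 0.1 for every pair. Between dex and saline libraries r was at most 0.057 for the same number. Between germ and somatic saline libraries it was 0.063, 0.08 and 0.065 for the same number and -0.046 to -0.018 for other numbers, so that each library correlated best with its own number. By the study's methods both populations were sorted from digested testes, so libraries of the same number may share a pool, though no label says so. The main tests treated them as independent. Germ dex and somatic dex libraries were not checked in this way. The block was read as a change of model only; it changed the count of calls by over 1.5 times in germ cells alone. Leaving out 1 library leaves 2 in that group. The biological coefficient of variation, 1 common value over all genes tested, was 14.4% in germ and 17% in somatic cells. It is not the spread of these genes. Differences near the medians of these genes did not pass the adjustment over all genes.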
